A study of Bos taurus and Capra hircus with 9 samples.

Results

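bta-miR-148a, bta-miR-148b and bta-miR-152 make up 1 seed family of miRNAs, and their levels in milk-derived extracellular vesicles (EVs) are described here in 5 cows and 4 goats. The 3 members were taken by name from the 296 bovine miRNA entries that were measured in these animals. EVs are small membrane vesicles that cells release, and small RNAs of the EV preparation of each animal's milk were sequenced as 1 library per animal. The cows were Holstein Friesian (numbers 1, 2, 3, 20 and 62), sampled at 30 ± 7 days postpartum. The goats were primiparous Alpine goats (numbers 17, 44, 79 and 127), sampled at 26 ± 9 days postpartum. A further goat was sampled, but its RNA failed the quality control and it has no library. Milk of both species was depleted of cells and fat, caseins were precipitated with acid, and EVs were collected from a sucrose gradient. Goat milk received a further acetic acid step, and the herds were kept on different farms. Species, breed, farm and this step cannot be told apart in this design, and parity was stated for the goats alone. Reads of both species were assigned with the bovine sequences as reference, and a check of the entries on goat sequences was not run. The comparison asks how the miRNA content of goat and cow milk EVs differs. Each animal is a replicate of its species.

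A miRNA guides Argonaute proteins to mRNAs that carry a match to its seed, the bases near its 5′ end, and the targeted mRNA is translated less or degraded. Members of a seed family therefore can recognize largely the same mRNAs. In human and mouse cells this family acts on DNMT1, the maintenance DNA methyltransferase, and miR-148a also acts on the LDL receptor and on the cholesterol exporter ABCA1. miR-148a is known as a very abundant miRNA of milk and of the lactating mammary gland.

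The mature sequences of the table are shown because the members differ in few bases, all of them outside the seed. Capitals mark the seed (bases 2 to 8 from the 5′ end), and T stands for U as in the deposited table.
bta-miR-148a: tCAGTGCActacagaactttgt
bta-miR-148b: tCAGTGCAtcacagaactttgt
bta-miR-152: tCAGTGCAtgacagaacttggg

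All 3 were 22 nt long and carried the seed CAGTGCA, whose match in an mRNA reads TGCACTG. With positions counted from 1 at the 5′ end, miR-148b differed from miR-148a by C9T and T10C, which left 20 identical bases. miR-152 differed from miR-148a by 4 substitutions, C9T, T10G, T20G and T22G. Between miR-148b and miR-152 there were 3 substitutions, C10G, T20G and T22G. Of the 296 entries, which held 237 different seeds, only these 3 had this one. A single further entry, bta-miR-454, had the last 6 seed bases within its bases 1 to 8, and it was listed at 0 in each library except that of goat 79, where it stood at 1 TPM. The seed total used below is therefore the sum of the 3 members.

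The members come from 3 separate genes in the bovine RefSeq annotation (ARS-UCD2.0), which was used for gene names and neighbours alone. MIR148B lies inside COPZ1 and MIR152 inside COPZ2, genes for paralogous zeta subunits of the COPI vesicle coat. MIR148A lies outside protein-coding genes, with NFE2L3, a transcription factor gene, as the nearest. The annotation also has MIR148D overlapping MIR148A and MIR148C overlapping MIR152. Neither is among the 296 entries, and the table of genes used here gives no strand.

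Levels are given as TPM, tag numbers that the authors scaled to a common library size and wrote as whole numbers. TPM are not divided by length, and all 3 members have the same length. miR-148a was the main member in every animal. It stood at 152766, 162321, 101650, 98491 and 103549 TPM in cows 1, 2, 3, 20 and 62, and at 128040, 59495, 88427 and 79740 TPM in goats 17, 44, 79 and 127. Cows 1 and 2 were the highest, goat 17 followed above the other 3 cows, and the other 3 goats were the lowest, so the species overlapped. The mean was 123755 ± 31081 TPM in cows (SD, n = 5) and 88926 ± 28756 TPM in goats (SD, n = 4), and the goat mean was 0.719 times the cow mean.

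miR-148b was scarcer by more than 2 orders of magnitude. It was found at 609, 605, 381, 370 and 404 TPM in cows 1, 2, 3, 20 and 62, and at 656, 398, 548 and 446 TPM in goats 17, 44, 79 and 127. Goat 17 was the highest and the species were interleaved, with means of 474 ± 122 TPM in cows (SD, n = 5) and 512.0 ± 115 TPM in goats (SD, n = 4). miR-152 was the scarcest member. Its levels were 391, 357, 201, 227 and 211 TPM in cows 1, 2, 3, 20 and 62, and 239, 188, 311 and 139 TPM in goats 17, 44, 79 and 127. Cows 1 and 2 were again the highest, goat 127 was the lowest, and goats 17 and 79 lay above the remaining cows. The means were 277 ± 89.5 TPM in cows (SD, n = 5) and 219 ± 73.5 TPM in goats (SD, n = 4).

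**Figure D1:**
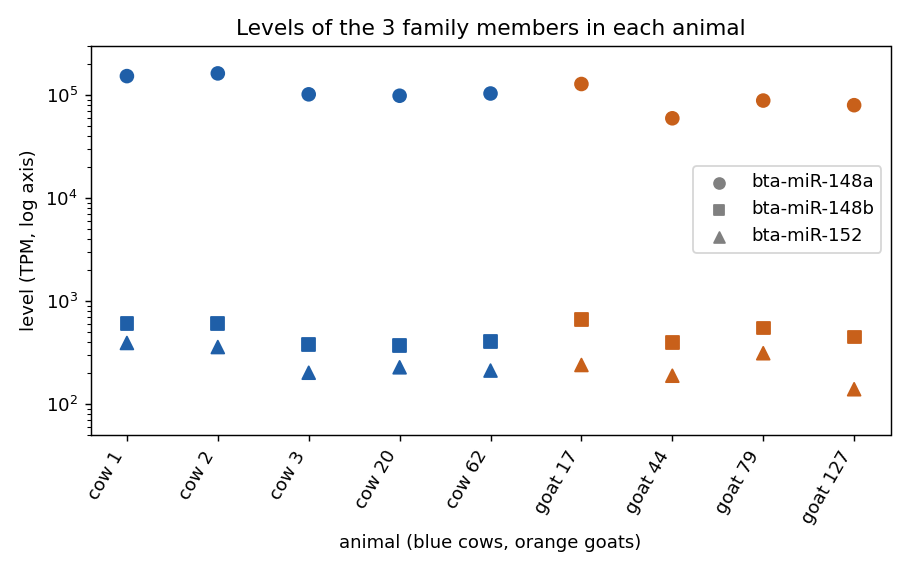
TPM of bta-miR-148a (circles), bta-miR-148b (squares) and bta-miR-152 (triangles) on a log axis, with 1 point for each member and animal, cows in blue and goats in orange. miR-148a ran from 59495 to 162321 TPM, while miR-148b stayed between 370 and 656 TPM and miR-152 between 139 and 391 TPM, and the species overlapped for each member.

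Goat and cow levels were set against each other by limma on the log2(TPM + 1) scale. The fit took the 217 entries that exceeded 1 TPM in 4 or more libraries, and entries were called at a Benjamini-Hochberg adjusted p under 0.05. All 3 members passed this filter. None of the 3 passed the limma test, beside 61.3% of all tested entries that did, and none had an unadjusted p under 0.05 (the lowest was 0.0963, for miR-148a). In goats relative to cows, the log2 fold change of miR-148a was -0.50 (95% confidence interval -1.09 to 0.10, adjusted p = 0.139, limma), beside a median of 0.24 over all 217 entries. It was 0.12 for miR-148b (interval -0.43 to 0.67, adjusted p = 0.701, limma). It was -0.34 for miR-152 (interval -0.99 to 0.30, adjusted p = 0.337, limma). These intervals leave room for a change of about 1 on the log2 scale for miR-148a and miR-152. The outcome for miR-148a and miR-152 depended on the scaling. With TPM set relative to the sum of all listed entries, miR-148a passed as lower in goats (-0.40, adjusted p = 0.0138, limma). It also did so relative to that sum without miR-148a (-0.58, adjusted p = 0.00686, limma). Factors from the median of ratios gave the same call (-0.58, adjusted p = 0.00822, limma). On the deposited TPM it passed without goat 17 (-0.69, adjusted p = 0.0466, limma). miR-152 passed as lower in goats relative to the sum without miR-148a (-0.43, adjusted p = 0.0307, limma). The median-of-ratios factors gave this call too (-0.42, adjusted p = 0.0465, limma). miR-148b passed in none of these runs.

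miR-148a held the first rank in each of the 9 animals, but its lead varied among goats. In cows it stood 3.23 to 5.44 times above the next entry, which was miR-21-5p, a miRNA expressed in many cell types, in all 5. In goats the lead was 4.47 times in goat 17 and 4.99 times in goat 127, and 1.56 and 1.74 times in goats 44 and 79. The next entry was miR-21-5p in goats 17, 44 and 79, and miR-26a in goat 127. miR-21-5p itself ranged from 10333 TPM in goat 127 to 50824 TPM in goat 79 and no species difference was called for it (adjusted p = 0.935, limma). The rank of miR-148b varied little, with places 41 to 44 in cows and 38 to 45 in goats. miR-152 ranked 51 to 57 in cows and 59 to 70 in goats, so each goat ranked it lower than any cow did. A rank also depends on the levels of the other entries, and the TPM of miR-152 overlapped between the species. How many of all entries had ranks that separate the species was not computed.

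The listed miRNAs added up to different totals, 267316 to 420029 TPM in cows and 239233 to 406336 TPM in goats, and cows 1 and 2 and goat 17 had the highest totals of the 9. These totals were 23.9% to 42.0% of the total to which TPM are scaled, and the tags outside the list were not analysed here. Shares below are shares of the listed TPM in each animal. miR-148a took 36.4%, 39.7%, 36.3%, 36.8% and 33.9% in cows 1, 2, 3, 20 and 62, and 31.5%, 23.3%, 23.9% and 33.3% in goats 17, 44, 79 and 127. The highest goat lay just below the lowest cow. The difference, goat minus cow, was -8.59 percentage points (two-sided exact permutation test, p = 0.00794, adjusted p = 0.0150 over the 217 entries). This p is the smallest the test can give with 4 goats and 5 cows, and 68.7% of the 217 entries passed the same test on shares.

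Within cows the share of miR-148a varied far less than its TPM, with a coefficient of variation (CV) of 5.64% against 25.1%. Among the 149 tested entries with a mean of at least 10 TPM, only 3 had a lower CV of share in cows. On TPM, 55 of the 149 had a lower CV in cows. miR-148a itself made up a mean of 36.6% of the listed TPM in cows, which by construction narrows the spread of its share. How far this accounts for its low CV was not tested. miR-148b, at a mean share of 0.140% in cows, had a CV of share of 4.60% there, against 25.8% on TPM. Only 2 of the 149 entries had a lower CV of share. The median CV of the 149 in cows was 20.1% on shares and 27.4% on TPM. In goats the CV of the share was 18.3%, and goats 17 and 127 lay near the cows while goats 44 and 79 were lower. miR-146b, a miRNA of the innate immune response, took 2.90% to 5.72% of the listed TPM in goats and 0.0271% to 0.0393% in cows. With miR-146b left out of the total, the share of miR-148a was 29.4% in goats and 36.6% in cows. Goat 127, at 35.4%, then lay above cow 62, at 33.9%, and the difference was -7.25 points (two-sided exact permutation test, p = 0.0159, adjusted p = 0.0253).

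miR-148b moved the other way on this scale. Its share of the listed TPM was 0.145%, 0.1479%, 0.136%, 0.138% and 0.132% in cows 1, 2, 3, 20 and 62, and 0.161%, 0.156%, 0.1481% and 0.186% in goats 17, 44, 79 and 127. The lowest goat, 79, and the highest cow, 2, were almost level, yet the species did not overlap. The difference of 0.0231 percentage points passed the test (two-sided exact permutation test, p = 0.00794, adjusted p = 0.0150). Without goat 127 it was 0.0153 points and no longer passed (adjusted p = 0.0542, same exact test). Set against the listed TPM outside the family in place of all listed TPM, miR-148b came to 0.229% in goats and 0.222% in cows, and this difference did not pass (p = 0.746, adjusted p = 0.782, same exact test). On that same scale miR-148a stood at 39.6% in goats and 58.1% in cows (p = 0.00794, adjusted p = 0.0158, same exact test). The higher share of miR-148b in goats was thus seen with the 3 totals that contain miR-148a (all listed entries, those without miR-146b, and the entries above 0 in every library), and not with the total outside the family.

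The share of miR-152 ranged from 0.0690% to 0.0931% in cows and from 0.0581% to 0.0841% in goats. The ranges overlapped and the difference of -0.0125 points did not pass (two-sided exact permutation test, p = 0.167, adjusted p = 0.210). Goats 17 and 127, which had the highest goat shares of miR-148a, had the lowest shares of miR-152 of the 9 animals, at 0.0588% and 0.0581%. The whole family, given without a test, took 34.1% to 39.9% of the listed TPM in cows and 23.6% to 33.6% in goats. miR-148b and miR-152 together made up 0.201% to 0.238% in cows and 0.220% to 0.245% in goats.

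**Figure D2:**
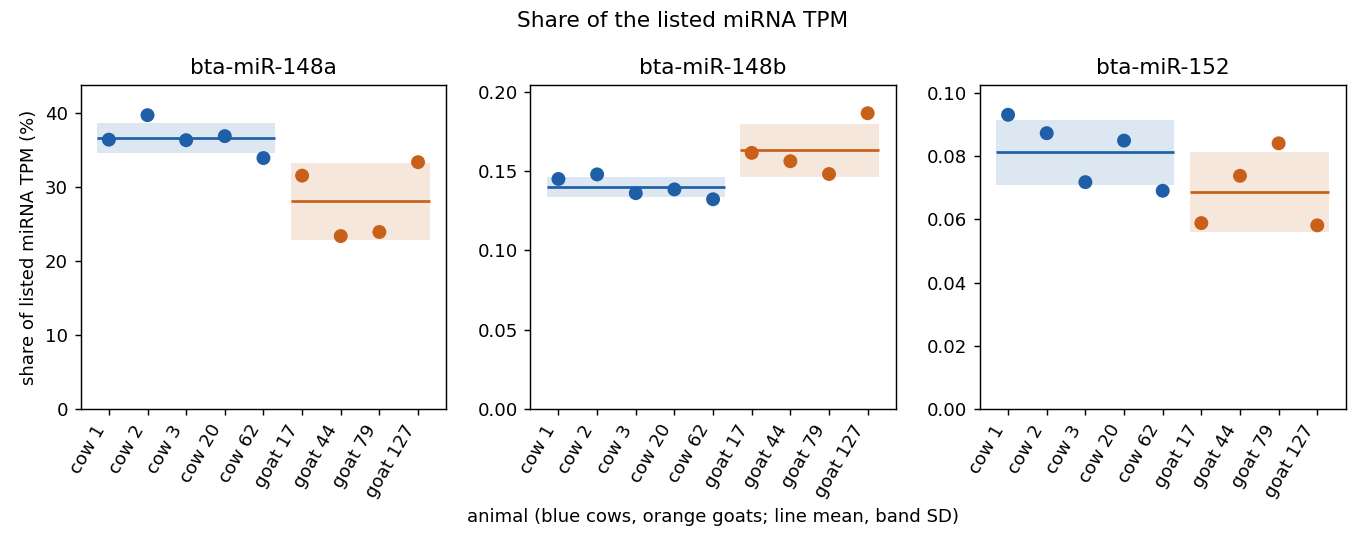
Share of the listed miRNA TPM, in percent, of each member in each animal, with the mean of a species as a line and the SD as a band. miR-148a lay between 33.9% and 39.7% in cows and between 23.3% and 33.3% in goats, miR-148b was higher in each goat than in each cow by a narrow margin, and miR-152 overlapped.

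Ratios between members within a library do not depend on the library total. The ratio of miR-148a to miR-148b was nearly constant in cows, at 251, 268, 267, 266 and 256 in cows 1, 2, 3, 20 and 62. In goats it was 195, 149, 161 and 179 in goats 17, 44, 79 and 127. All goats were below all cows, and the mean was 262 ± 7.69 in cows (SD, n = 5) and 171 ± 20.0 in goats (SD, n = 4). For how many of all entries the ratio to miR-148a separates the species was not computed. On shares of the listed TPM, 68.7% of the 217 entries passed the exact test. On the log2 scale the ratio of miR-148b to miR-148a was 0.62 higher in goats (two-sided exact permutation test, p = 0.00794, adjusted p = 0.0159 over 6 comparisons within the family). The direction was the same without any 1 animal, with differences from 0.56 to 0.68. When a cow is left out the adjusted p becomes 0.0571, the smallest value this design then allows for a comparison tied with 2 others.

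The ratio of miR-148a to miR-152 ran from 391 to 506 in cows. In goats it was 536, 316, 284 and 574 in goats 17, 44, 79 and 127, so 2 goats were above and 2 below all cows. The log2 difference for miR-152 to miR-148a was 0.15 and did not pass (two-sided exact permutation test, p = 0.500, adjusted p = 0.500). miR-148b exceeded miR-152 in every animal, by 1.56 to 1.91 times in cows and by 2.74, 2.12, 1.76 and 3.21 times in goats 17, 44, 79 and 127. Only goat 79 lay within the range of the cows. The log2 ratio of miR-148b to miR-152 was 0.46 higher in goats (two-sided exact permutation test, p = 0.0317, adjusted p = 0.0476). This call was lost in 8 of the 9 runs with 1 animal left out, in which the difference went from 0.32 to 0.61.

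As shares of the seed total, miR-148a made up 99.35% to 99.43% in cows and 99.02% to 99.31% in goats. miR-148b made up 0.371% to 0.396% in cows and 0.509% to 0.662% in goats. Neither of these pairs of ranges overlapped (two-sided exact permutation test for each, p = 0.00794, adjusted p = 0.0159). Because miR-148a makes up nearly all of the total, both shares largely restate the ratio of miR-148b to miR-148a. They are not further results. As for the ratio, neither passed when any 1 cow was left out (adjusted p = 0.0571, same exact test). That is again the smallest value allowed for comparisons tied in this way. miR-152 made up 0.197% to 0.254% in cows and 0.173% to 0.348% in goats, and the difference did not pass (p = 0.421, adjusted p = 0.500, same exact test). Thus over 99% of the family tags came from miR-148a in every animal. Within the pair of miR-148b and miR-152 alone, miR-148b took 70.3% in goats and 63.4% in cows, which restates on another scale the ratio above, whose call was lost in 8 of the 9 runs.

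**Figure D3:**
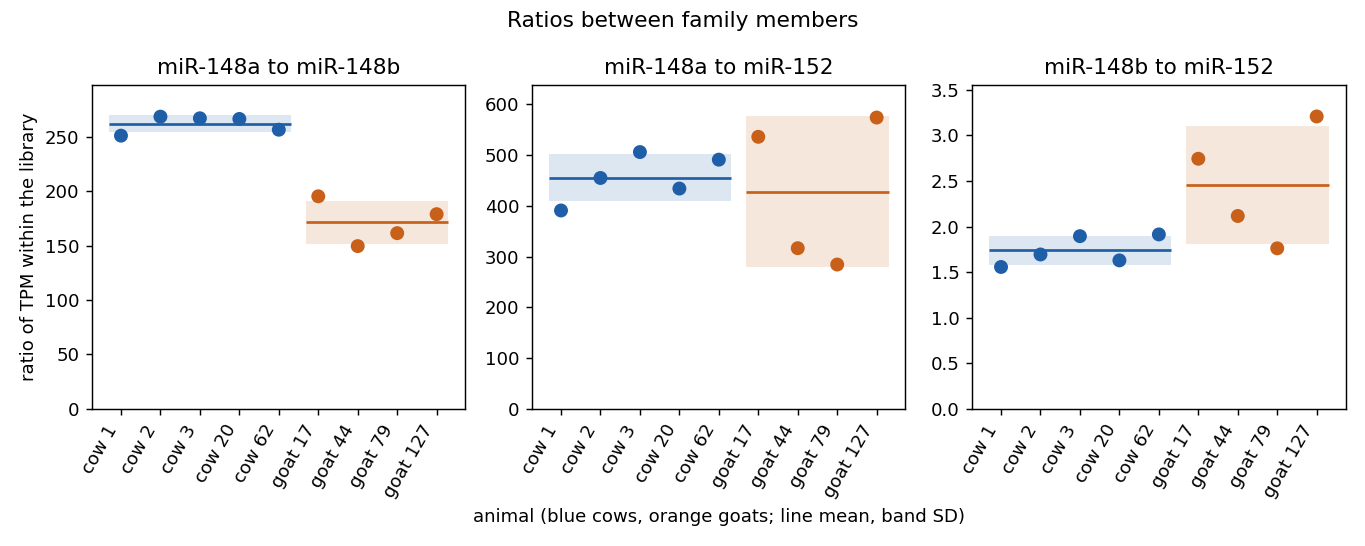
Ratios of TPM between 2 members of the same library, with the mean of a species as a line and the SD as a band. For miR-148a to miR-148b the 5 cows lay between 251 and 268 and the 4 goats between 149 and 195, while for miR-148a to miR-152 the goats lay on both sides of the cows and for miR-148b to miR-152 goat 79 lay among the cows.

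miR-148a and miR-148b also varied together among the animals of a species. After centring log2(TPM + 1) within species, their Pearson r over the 9 animals was 0.96, and each was the entry most like the other among all tested entries with a mean of at least 10 TPM. The median r of miR-148a with those entries was 0.55, and all values of an animal come from 1 library with 1 scaling. When shares of the listed TPM were used in place of TPM, r was 0.82. miR-152 followed them less closely, with r of 0.68 to miR-148a and 0.82 to miR-148b on TPM. On shares of the listed TPM these values were -0.54 and -0.29. The second entry most like miR-148a was miR-532 (r = 0.93) and the second most like miR-148b was let-7g (r = 0.93). For miR-152 the closest were miR-769 (r = 0.97) and miR-140 (r = 0.96). The median r with all these entries was 0.60 for miR-148b and 0.63 for miR-152. Likeness to entries other than the members was computed on TPM only, and not on shares. Without centring, the closest to miR-148a were miR-30a-5p (r = 0.90) and miR-532 (r = 0.90), the closest to miR-148b were let-7g (r = 0.91) and miR-151-3p (r = 0.87), and the closest to miR-152 were let-7a-5p (r = 0.94) and miR-140 (r = 0.91). The r of miR-148a and miR-148b without centring was 0.66, which placed miR-148b 37th for miR-148a and miR-148a 15th for miR-148b. These values describe 9 animals of 2 species and were not tested.

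On the deposited TPM, 3 of the 7 entries named here as most like a member, apart from the members, passed the species comparison, beside 61.3% of all tested entries. miR-532 was lower in goats (log2 fold change -0.71, adjusted p = 0.0151, limma). miR-140, known for its role in cartilage, was also lower (-1.23, adjusted p = 0.0166, limma), and it peaked at 1077 TPM in cow 1, the cow with the highest miR-152. miR-769 was higher (1.26, adjusted p = 0.00540, limma) and peaked at 61 TPM in goat 79, the goat with the highest miR-152. miR-140 and miR-769 were named for their likeness to miR-152 in these same animals, so the shared peaks are no further result. let-7g and miR-151-3p did not pass on the deposited TPM. Relative to the sum of all listed entries both passed as higher in goats (limma, adjusted p = 0.00365 and 0.0170), and neither did relative to that sum without miR-148a (limma, adjusted p = 0.0981 and 0.123) or by median of ratios (0.0918 and 0.164). miR-30a-5p and let-7a-5p did not pass on the deposited TPM either. Both passed as lower in goats by median of ratios (limma, adjusted p = 0.00721 and 0.0229) and relative to the sum without miR-148a (0.00872 and 0.00775). Relative to the whole sum miR-30a-5p passed and let-7a-5p did not (0.0491 and 0.0752).

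**Figure D4:**
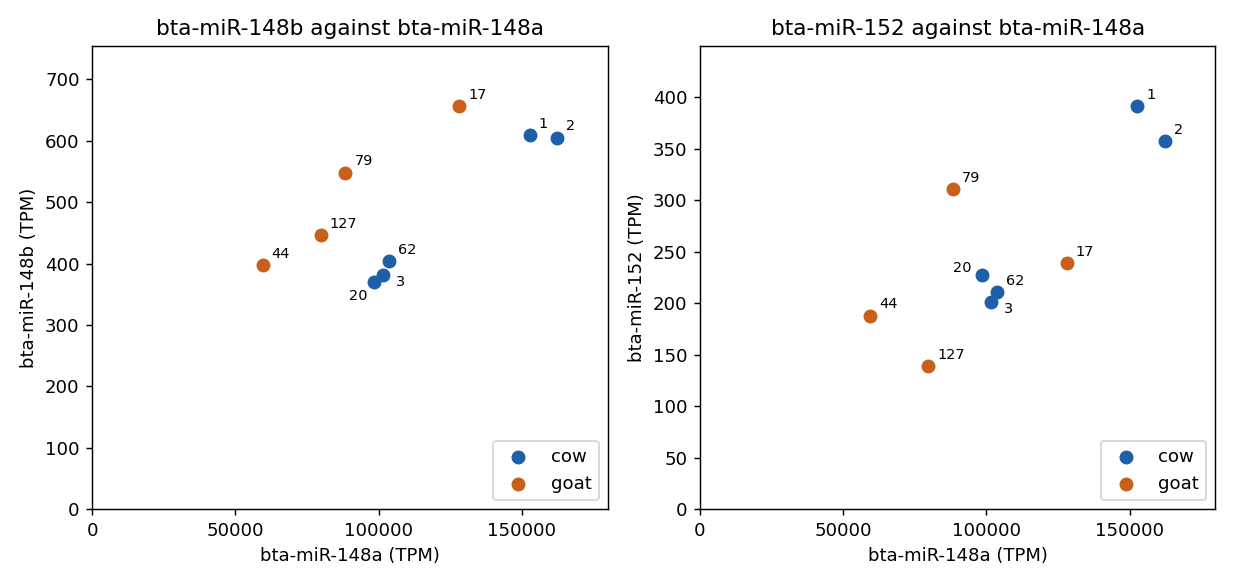
TPM of bta-miR-148b and of bta-miR-152 against TPM of bta-miR-148a, 1 point per animal labelled with its number, cows in blue and goats in orange. In the plot of miR-148b the cows follow 1 line and the goats lie above it, while in the plot of miR-152 goat 79 lies above the other goats and goat 127 below.

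Other miRNAs that act on the same pathways as the family were examined as lists. The miR-29 family acts on the de novo DNA methyltransferases DNMT3A and DNMT3B in human cells. Of its 5 entries 4 were tested, 3 were lower in goats (miR-29c, miR-29b and the low miR-29d-3p) and miR-29a did not pass, beside 61.3% of all tested entries called and 52 of 217 called lower. The median log2 fold change was -1.37, beside 0.24 over all tested entries. miR-29a, the most abundant, had a log2 fold change of -0.16 (adjusted p = 0.614, limma), and miR-29b one of -1.71 (adjusted p = 9.88e-05, limma). miR-29d-3p did not exceed 4 TPM in any animal, and it exceeded 1 TPM in 4 cows and 0 goats, so its direction was set by the filter. Of 10 miRNAs known from human or mouse cells to act on cholesterol export or the LDL receptor, 6 were among the entries and all 6 were tested. miR-27b was lower in goats (log2 fold change -0.84, adjusted p = 0.0107, limma), miR-758, listed at 0 in all 5 cows, was higher, and 4 did not pass, among them miR-27a-3p (0.09, adjusted p = 0.818, limma), against the same 61.3% over all tested entries. The direction of miR-758 too was set by the filter, and the median of the list was -0.01.

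Markers of the cell types that milk can hold were read beside these results. The 7 markers of mammary epithelium were all measured, led by miR-200a and miR-200c, and summed to 32291 to 46038 TPM in cows and 27864 to 49878 TPM in goats. Of the 7, miR-141 was lower in goats, miR-205 was higher and the other 5 markers did not pass, beside 61.3% called over all tested entries. miR-205 was listed at 0 in 4 of the 5 cows and reached the test through the goats, which set its direction. The 6 leukocyte markers summed to 13 to 48 TPM in cows and to 383 to 1151 TPM in goats. All 5 tested ones were higher in goats, beside 61.3% of all tested entries called and 81 of 217 called higher. Of these 5, miR-155 exceeded 1 TPM in every animal. miR-223, miR-142-5p, miR-150 and miR-146a did so in all 4 goats but in 2 cows each, so that they reached the test through the goats, which set their direction. miR-223 and miR-142-5p were listed at 0 in 2 cows. The sums in goats 17, 44, 79 and 127 were 1068, 591, 1151 and 383 TPM, beside miR-148a shares of 31.5%, 23.3%, 23.9% and 33.3%. Of the 4 endothelial and stromal markers 3 were measured, at 19 to 30 TPM in cows and 217 to 425 TPM in goats. Of the 2 tested, miR-143 was higher in goats and miR-126-3p did not pass, beside 61.3% called over all tested entries. In each goat miR-143 alone, at 216 to 423 TPM, made up nearly all of this sum. Its range among cows was 14 to 25 TPM. miR-126-3p pointed the other way (log2 fold change -0.92, adjusted p = 0.144, limma). It did not exceed 5 TPM in any animal, and it exceeded 1 TPM in 4 cows and 1 goat. miR-145 was listed at 0 in all 5 cows and was not tested. The 2 measured red cell markers, miR-451 and miR-486, stood at 0 to 10 TPM together in cows and 1 to 37 TPM in goats. The part of these markers in the lower miR-148a share of goats was not tested. In a vesicle preparation, a change in the cells that release vesicles and a change in their load of a miRNA cannot be told apart.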

How the data were processed

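Small RNA libraries (NEBNext kit, NextSeq 500) from milk EVs of 5 cows and 4 goats, 1 per animal, were trimmed by the authors and counted on bovine entries of miRBase. The aligner and the assembly were not given in the sources used here. Values were deposited as TPM rounded to whole numbers by the authors and were treated as a score. The study's methods give mean read numbers per species and none per library, and the TPM keep no counts, so no counting interval was computed. No 2 libraries held identical values (0 pairs).

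The members and lists were chosen with earlier results of these data known. From the TPM, species were compared with limma 3.58.1 (R 4.3.3, trend) on log2(TPM + 1), for entries above 1 TPM in at least 4 libraries. Shares of the listed TPM, ratios and shares of the seed total were compared by two-sided exact permutation tests over all 126 assignments of the 9 animals (Python 3.11, numpy 2.4.6, scipy 1.17.1). Both procedures were tested on simulated data. P-values set the difference between the species against the spread between animals, and not against a spread between farms. The named miRNAs are the members, the entry of second-highest mean, the 2 entries most like each member with and without centring, and the 2 most abundant entries of each list. miR-26a, miR-146b, miR-454, miR-29c, miR-29d-3p, miR-758, miR-205, miR-141, miR-142-5p, miR-150, miR-146a and miR-145 were chosen after their values were seen or by sequence. The alternatives were other pseudocounts (0, 0.1 and 10), filters, scalings and denominators, limma without a trend, medians for means, and leaving out each animal. Likeness on shares and without each animal was added after the data were seen.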

Additional observations from a re-analysis of the deposited data

Results flagged for a closer look

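Among 100 groups of values (a measure in the animals of 1 species), 4 had an animal far from the others. For normally distributed values, chance alone is expected to mark about 1 in 20 such groups. Some groups restate the same values on another scale and some hold only a few TPM, so this rate is a rough guide. None of the 4 was a value of a family member. miR-146b, whose share was removed from the total as an alternative for miR-148a, took 0.0393% of the listed TPM in cow 20, and the next cow had 0.0298%. miR-155, a leukocyte marker, stood at 813 TPM in goat 17, and the next goat had 302 TPM. The red cell marker miR-451 was at 26 TPM in goat 79 with the next goat at 3 TPM, and miR-486 at 8 TPM in cow 1 with the next cow at 1 TPM.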

How the results depend on the processing

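Of 158 runs of the 12 results on the family members under an alternative, 124 kept both the direction and the side of the threshold. Some of the other runs, those without a cow given below, could not keep the call in this design. The log2 fold change of miR-148a was -0.50 on the deposited TPM, -0.40 with the listed total, -0.58 with the listed total without miR-148a and -0.58 with median of ratios, and -0.69 to -0.32 with 1 animal left out. miR-152 was at -0.43 with the listed total without miR-148a and -0.42 with median of ratios, and -0.53 to -0.15 with 1 animal left out. miR-148b went from -0.0057 (without goat 17) to 0.23. These scalings moved the median of all tested entries to 0.33, 0.15 and 0.16 from 0.24. The share difference of miR-148a kept its call in all 13 alternatives (-10.4 to -7.03 points with 1 animal left out). That of miR-148b fell to 0.00727 points outside the seed family, where miR-148a is by construction no longer in the total, and ran from 0.0153 to 0.0281 points with 1 animal left out.

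With 1 animal left out, the log2 ratio difference ran from 0.56 to 0.68 for miR-148b to miR-148a, from 0.32 to 0.61 for miR-148b to miR-152, and from -0.019 (without goat 79) to 0.32 for miR-152 to miR-148a. The share of the seed total differed by -0.288 to -0.194 points for miR-148a and by 0.179 to 0.230 points for miR-148b, and neither passed without any 1 of the 5 cows (adjusted p = 0.0571, exact permutation test). When miR-148a was left out of the seed total, the share of miR-152 differed by -6.93 points. That total holds miR-148b and miR-152 alone. This difference is therefore the complement of that of miR-148b in the pair, and another quantity than the share of the whole seed total. Likeness to miR-152 turned negative on shares (-0.54 for miR-148a, -0.29 for miR-148b). Of the other named entries, miR-21-5p turned to 0.052 with the listed total and ran from -0.34 to 0.43 with 1 animal left out, and miR-27a-3p from -0.16 to 0.47; the cause was not tested. Entries passing numbered 81 higher and 52 lower in goats, and 47 and 33 above 10 TPM, where fewer were tested (150 for 217). No paired analysis was made, because the cows and goats are separate animals kept on different farms and no matching between them was given. Values of a few TPM rest on few tags, and without read numbers per library their counting error was not computed.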
